A study of Mus musculus with 6 samples.

Results

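The 9 genes described here encode the core of transforming growth factor beta (TGF-beta) signaling, namely the ligands *Tgfb1*, *Tgfb2* and *Tgfb3*, the receptors *Tgfbr1* and *Tgfbr2*, and the intracellular transducers *Smad2*, *Smad3*, *Smad4* and *Smad7*. They were taken by symbol from the expression table of 6 mouse liver tumor cell lines, where they are 9 of 20856 genes with values. None was chosen by its measured level, but earlier results of these data were known when the set was chosen. All lines came from tumors started in C57BL/6 mice by hydrodynamic tail vein injection of a *Myc* transposon together with a plasmid for transient Cas9 and a guide RNA. The guide targeted *Trp53* in 3 lines (*Myc*; sg*Trp53*, labelled sgp53/Cas9) and *Kmt2c*, the gene of the histone methyltransferase MLL3, in the other 3 (*Myc*; sg*Kmt2c*, labelled sgMll3/Cas9). Every line therefore carries the *Myc* transgene, neither genotype keeps both targeted genes intact, and there is no line with *Myc* alone. Tumor cells were grown on collagen-coated plates in medium with serum until no fibroblasts were visible, and each line gave 1 library. Alleles edited by Cas9 can differ from cell to cell and from line to line.

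TGF-beta is made as a latent precursor that is held in the matrix and has to be released. The active dimer binds the type II receptor (*Tgfbr2*), which recruits and phosphorylates the type I receptor (*Tgfbr1*). That kinase phosphorylates SMAD2 and SMAD3, which enter the nucleus with SMAD4 and act on target genes, while SMAD7, itself induced by the signal, blocks the receptor. In liver the pathway is known for halting hepatocyte growth, for hepatocyte death and for driving fibrosis through stellate cells. In tumor cells it is known for promoting a mesenchymal state.

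Expression was deposited as RPKM (reads on a gene, scaled to its transcript length and to all reads counted on genes). Levels of a gene can be compared between lines, while levels of different genes compare only as far as the listed lengths hold. The libraries held 3680068 to 6878625 reads on genes, and each sg*Kmt2c* library was shallower than every sg*Trp53* library. *Trp53*, the targeted gene whose transcript separates the genotypes, lay at 17.2 to 19.4 RPKM with sg*Trp53* and 92.2 to 124 RPKM with sg*Kmt2c*, on the side its label gives in every line. *Kmt2c* transcript overlapped between the genotypes, at 18.4 to 24.2 RPKM against 9.51 to 25 RPKM. *Cdkn2a*, the gene of the p16 and p19ARF tumor suppressors, was lower with sg*Kmt2c* (log2 fold change -3.46, adjusted p = 0.0359 from limma). The lines also differed in kind within a genotype. Summed over 8 hepatocyte marker genes, sg*Kmt2c* replicate 1 reached 5613 RPKM, mostly from *Apob* (an apolipoprotein) and *Hnf4a* (a hepatocyte transcription factor), against 302 RPKM or less in every other line. Their RPKM there rests on 23099 and 2409 reads and on listed transcript lengths of 1118 and 431 bases. A longer transcript would lower these values and the sum. *Alb*, the gene of serum albumin and the defining hepatocyte product, did not exceed 4.36 RPKM in any line. Summed over 10 fibroblast and stellate cell markers, the same sg*Kmt2c* replicate 1 lay at 0.282 RPKM, and sg*Trp53* replicate 2 reached 986 RPKM, most of it *Col3a1*. Endothelial markers summed to 0.302 RPKM or less in every line.

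None of the 9 TGF-beta genes passed an adjusted p-value of 0.05 between sg*Trp53* and sg*Kmt2c* (limma on log2(RPKM + 1), Benjamini-Hochberg adjustment over 11617 genes), where 0.129% of all genes tested did. At an unadjusted p-value under 0.05 the count was also 0 of 9, against 8.58% of all genes tested, and limma voom on the reads recovered from the table gave 0 of 9 at either threshold. All 9 were expressed well enough to be tested, and their adjusted p-values lay between 0.597 (*Smad3*) and 0.801 (*Tgfb2*). The log2 fold change (sg*Kmt2c* minus sg*Trp53*) was below 0 for 6 genes and above 0 for *Tgfb1*, *Tgfbr1* and *Smad7*, with a median of -0.44. Over all genes tested the median was -0.09 and 58.0% were below 0. For a single gene, the exact permutation test of 3 against 3 lines (two-sided) has 0.1 as its smallest p-value.

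**Figure D1:**
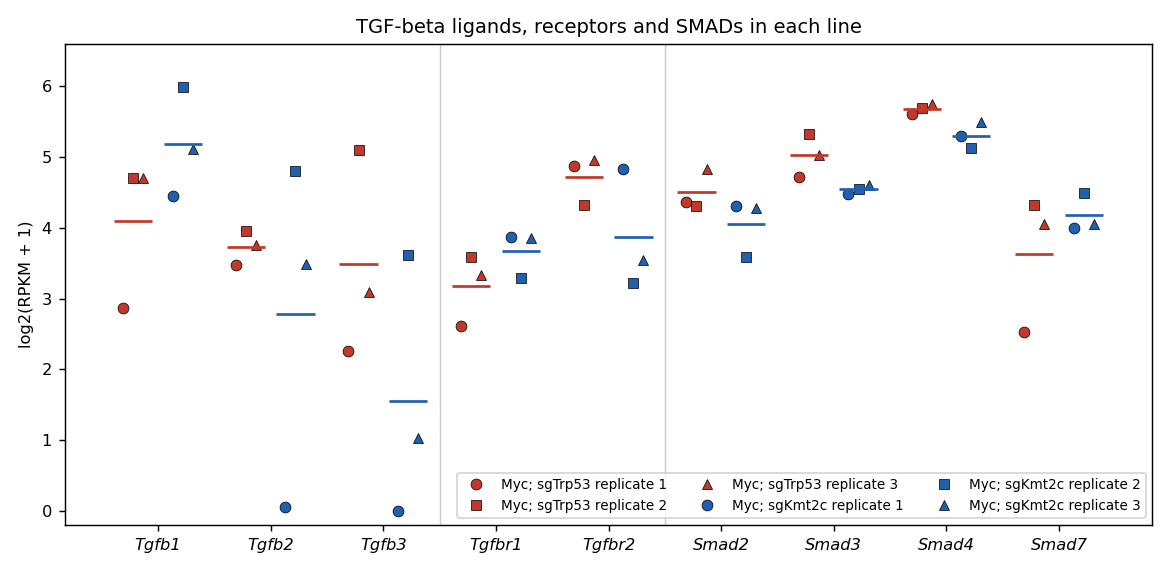
Level of each TGF-beta gene in each line as log2(RPKM + 1), red for the 3 sgTrp53 lines and blue for the 3 sgKmt2c lines, with the marker shape giving the replicate and the bar the mean of a genotype. *Tgfb2* and *Tgfb3* span from near 0 to 26.9 and 33.4 RPKM, while the points of *Smad4* lie close together and those of the genotypes do not overlap.

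*Tgfb1*, the ligand made by most tissues, was the most abundant ligand in all 3 sg*Kmt2c* lines. Levels were 6.26, 25.1 and 25.2 RPKM with sg*Trp53* and 20.9, 62.6 and 33.8 RPKM with sg*Kmt2c* (replicates 1, 2 and 3 of each, the order used throughout). The genotypes overlapped, since sg*Kmt2c* replicate 1 lay below sg*Trp53* replicates 2 and 3. The log2 fold change was 1.10 with a 95% confidence interval from -0.37 to 2.56 (adjusted p = 0.650 from limma). It was 0.48 without the low sg*Trp53* replicate 1 and 0.69 without the high sg*Kmt2c* replicate 2. The gene lies on chromosome 7 of GRCm38 from 25687002 to 25705077.

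*Tgfb2*, a ligand that binds its receptors efficiently only with the help of betaglycan, was even among the sg*Trp53* lines and uneven among the sg*Kmt2c* lines. It measured 10.1, 14.5 and 12.5 RPKM with sg*Trp53* and 0.0415, 26.9 and 10.2 RPKM with sg*Kmt2c*. The lowest of these rests on 1 read, whose exact Poisson interval of 0.0253 to 5.57 reads allows up to 0.231 RPKM and covers counting error only. Both genotypes averaged 12.4 RPKM, with an SD of 2.23 in the sg*Trp53* and 13.6 in the sg*Kmt2c* lines (n = 3 each). On the log2 scale the difference was -0.94 (95% confidence interval -3.62 to 1.73, adjusted p = 0.801 from limma), and without sg*Kmt2c* replicate 1 it turned to 0.42. Its position is chromosome 1 from 186622792 to 186705989.

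*Tgfb3*, the ligand best known from palate and mesenchymal tissues, varied widely within both genotypes. With sg*Trp53* it measured 3.78, 33.4 and 7.51 RPKM (78, 602 and 175 reads). With sg*Kmt2c* it measured 0, 11.3 and 1.04 RPKM (0, 141 and 15 reads), and 0 reads in replicate 1 allow up to 0.188 RPKM (3 reads). Its highest sg*Kmt2c* line lay above 2 of the 3 sg*Trp53* lines, so the genotypes overlapped. The difference in log2 was -1.93 (95% confidence interval -4.53 to 0.66, adjusted p = 0.651 from limma), the furthest from 0 among the 9 genes. It was -1.12 without sg*Trp53* replicate 2, -1.16 with sg*Kmt2c* replicate 1 left out and -2.97 with replicate 2 of that genotype left out (unadjusted p = 0.0160, adjusted p = 0.518 from limma). With any line but sg*Kmt2c* replicate 2 left out the unadjusted p lay between 0.0773 and 0.341 (limma). *Tgfb3*, on chromosome 12 from 86056744 to 86079041, is the member whose listed span overlaps another gene of the table, *Ttll5*. The use of strand in counting is not stated, so reads in the overlap are uncertain. *Ttll5* itself lay at 29.4 to 60.8 RPKM across the lines, from 97 to 259 reads on a listed length of 699 bases.

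*Tgfb2* and *Tgfb3* were both near 0 in sg*Kmt2c* replicate 1, the line with the highest hepatocyte marker sum and the lowest fibroblast marker sum. That line also had the highest sum over 8 epithelial markers, at 6803 RPKM against 1015 RPKM or less in every other line. Apart from *Apob* and *Hnf4a*, its hepatocyte markers lay between 0 (*Tat*) and 19.3 RPKM (*Afp*). *Tgfb3* was highest in sg*Trp53* replicate 2, the line with the highest fibroblast marker sum and, at 64.0 RPKM, the lowest sum over 8 epithelial markers. The order was not strict, since sg*Trp53* replicate 1 had a fibroblast marker sum of 15.3 RPKM with *Tgfb2* at 10.1 RPKM, and sg*Kmt2c* replicate 3 had a sum of 110 RPKM with *Tgfb3* at 1.04 RPKM. Of the fibroblast and stellate markers, 7 of 10 reached 1 RPKM in at least 1 line, and *Pdgfra*, *Lum* and *Reln* did not. Immune markers summed to 21.9 to 58.7 RPKM with sg*Trp53* and 5.51 to 15.4 RPKM with sg*Kmt2c*, with *Ptprc*, the pan-leukocyte gene, under 1 RPKM in all and *Cd3e* and *Cd79a* at 0. *Lyz2*, the highest of them, measured 29.0, 17.1 and 45.3 RPKM against 0, 0.214 and 12.4 RPKM without overlap (unadjusted p = 0.0105, adjusted p = 0.427 from limma). *Csf1r* did not overlap either, at 10.0, 1.70 and 8.33 RPKM against 0.932, 0 and 0.967 RPKM (unadjusted p = 0.0122, adjusted p = 0.440 from limma). *Cd68* overlapped between the genotypes. Platelet markers, a cell type rich in TGF-beta, summed to at most 5.06 RPKM. The part of other cell types in the ligand levels was not tested, and in bulk RNA a smaller share of expressing cells cannot be told apart from less RNA per cell.

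**Figure D2:**
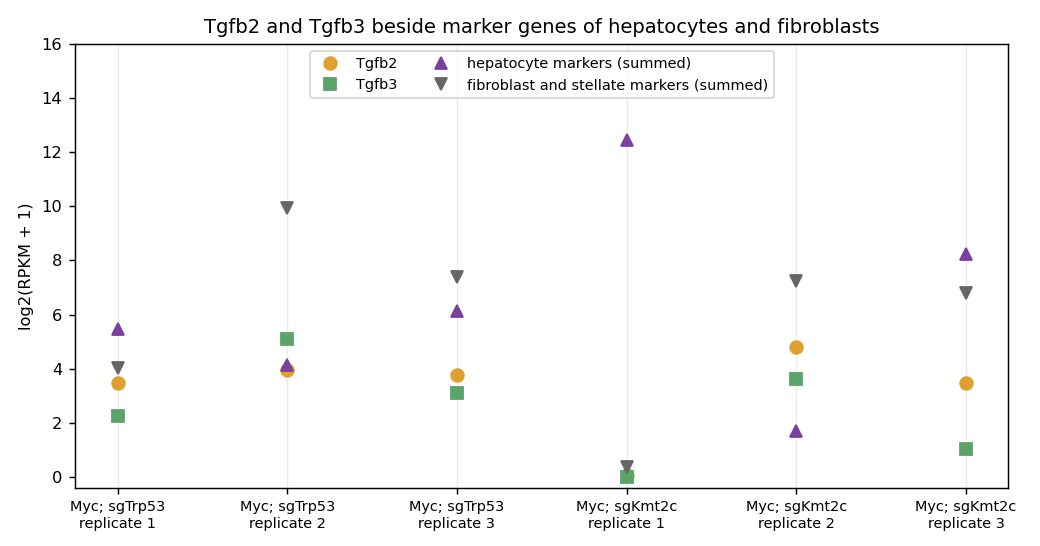
*Tgfb2* and *Tgfb3* in each line beside the summed RPKM of 8 hepatocyte and 10 fibroblast and stellate marker genes, all as log2(RPKM + 1). In sgKmt2c replicate 1 both ligands and the fibroblast marker sum (0.282 RPKM) lie at the bottom and the hepatocyte marker sum (5613 RPKM) at the top.

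The make-up of the ligand pool therefore differed from line to line. *Tgfb1* made up 31.1%, 34.3% and 55.8% of the summed ligand RPKM with sg*Trp53* and 99.8%, 62.1% and 75.0% with sg*Kmt2c*, so these shares did not overlap. They are given as a description without a test. The RPKM of each ligand by itself overlapped between the genotypes. The share of 99.8% belongs to sg*Kmt2c* replicate 1, with 1 read of *Tgfb2*, 0 reads of *Tgfb3* and *Tgfb1* at 20.9 RPKM. The line with the largest share of *Tgfb2* was sg*Trp53* replicate 1 (50.1%), and that with the largest share of *Tgfb3* was sg*Trp53* replicate 2 (45.8%). The ligand sum itself overlapped, from 20.1 to 73.0 RPKM with sg*Trp53* and from 20.9 to 101 RPKM with sg*Kmt2c*.

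**Figure D3:**
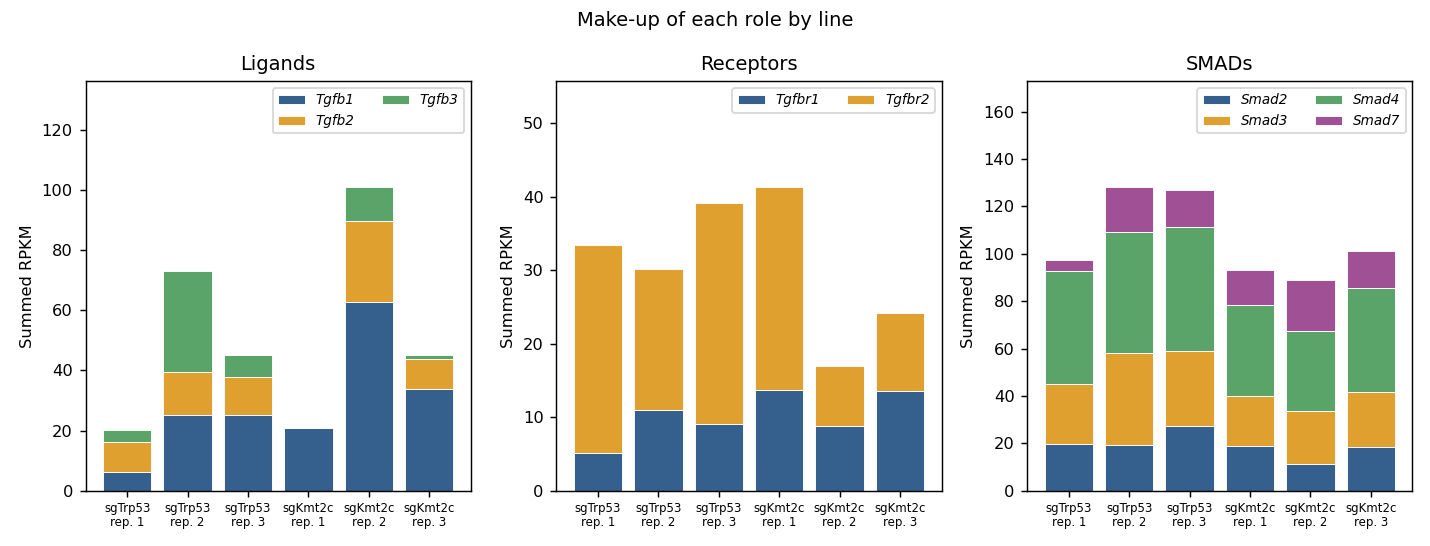
Summed RPKM of the ligands, receptors and SMADs in each line, stacked by gene. *Tgfb1* makes up nearly the whole ligand bar (99.8%) in sgKmt2c replicate 1, and *Smad4* is the largest SMAD segment in every line.

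The stretches before the annotated starts of *Tgfb1* and *Tgfb2* are shown because these ligands parted in sg*Kmt2c* replicate 1, at 20.9 against 0.0415 RPKM. Both are RefSeq sequence of GRCm38.p6, 250 bases upstream of the start and written 5′ to 3′ on the gene's strand, at chr7:25686752-25687001 (plus strand) and chr1:186705990-186706239 (minus strand). Capitals mark matches on either strand to the letters GGGCGG (the Sp1 site), CACGTG (the E-box bound by MYC and MAX), CAGACA (the core of the SMAD-binding CAGA box) or TGACTCA (the AP-1 site).
Tgfb1: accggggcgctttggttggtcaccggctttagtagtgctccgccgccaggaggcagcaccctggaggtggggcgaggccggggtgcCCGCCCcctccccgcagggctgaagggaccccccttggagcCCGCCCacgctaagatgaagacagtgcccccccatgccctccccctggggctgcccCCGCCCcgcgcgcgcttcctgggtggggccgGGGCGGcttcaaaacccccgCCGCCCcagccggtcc
Tgfb2: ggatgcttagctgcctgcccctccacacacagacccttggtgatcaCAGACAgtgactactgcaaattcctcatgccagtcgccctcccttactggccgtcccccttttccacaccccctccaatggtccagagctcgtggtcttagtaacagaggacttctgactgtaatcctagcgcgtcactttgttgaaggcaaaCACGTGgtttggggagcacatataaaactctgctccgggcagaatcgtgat
The *Tgfb1* window held 5 matches to GGGCGG, none of which overlap, and none to the other 3. The *Tgfb2* window held 1 CACGTG, 51 bases before the start, and 1 CAGACA, 204 bases before it, with none of the others. GC content was 75.2% and 53.6%, where the median of 32851 promoter windows was 52.4%. Of those windows 32.7% held GGGCGG, 6.02% held CACGTG, 17.1% held CAGACA and 4.46% held TGACTCA. A match describes letters and is no evidence of binding in these lines.

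The type I receptor *Tgfbr1* was less abundant than *Tgfbr2* in every sg*Trp53* line. It measured 5.13, 11 and 9.13 RPKM with sg*Trp53* and 13.6, 8.77 and 13.5 RPKM with sg*Kmt2c*. Only sg*Kmt2c* replicate 2 fell within the sg*Trp53* range. The log2 fold change was 0.49 (95% confidence interval -0.30 to 1.29, adjusted p = 0.703 from limma), and 0.21 without sg*Trp53* replicate 1. The gene lies on chromosome 4 from 47353222 to 47414931.

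The type II receptor *Tgfbr2*, which binds the ligand first, split the sg*Kmt2c* lines. It measured 28.3, 19.1 and 30 RPKM with sg*Trp53* and 27.6, 8.28 and 10.7 RPKM with sg*Kmt2c*. Replicates 2 and 3 of sg*Kmt2c* lay below every sg*Trp53* line, while replicate 1 lay inside their range. The difference in log2 was -0.85 (95% confidence interval -1.92 to 0.22, adjusted p = 0.635 from limma). Without sg*Kmt2c* replicate 1 it was -1.34 (unadjusted p = 0.00256, adjusted p = 0.270 from limma), and without replicate 2 it was -0.52. With any line but sg*Kmt2c* replicate 1 left out the unadjusted p lay between 0.0921 and 0.285 (limma). *Tgfbr2* lies on chromosome 9 from 116087698 to 116175363.

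*Tgfbr2* exceeded *Tgfbr1* per length by 5.53, 1.74 and 3.29 times in the sg*Trp53* lines and by 2.03 times in sg*Kmt2c* replicate 1. In sg*Kmt2c* replicates 2 and 3 the ratio was 0.944 and 0.791, so *Tgfbr1* was the more abundant receptor there. The ratios of the genotypes overlapped. *Tgfb1* and *Tgfbr2* ran in opposite order over parts of the 6 lines (Pearson r = -0.76 across 6 lines, a description), with *Tgfb1* highest and *Tgfbr2* lowest in sg*Kmt2c* replicate 2.

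*Smad4*, the common partner of the receptor-activated SMADs, was the most abundant of the 9 genes in 5 of the 6 lines and, with all lines, the steadiest. It measured 47.9, 50.6 and 52.7 RPKM with sg*Trp53* and 38.2, 33.9 and 44.0 RPKM with sg*Kmt2c*. No sg*Kmt2c* line reached the lowest sg*Trp53* line (p = 0.1, the least that this two-sided exact permutation test allows). The log2 fold change was -0.38 (95% confidence interval -0.81 to 0.05, unadjusted p = 0.0751, adjusted p = 0.608 from limma). The interval reaches from 0.571-fold to 1.04-fold. Without sg*Kmt2c* replicate 3 the difference was -0.47 (unadjusted p = 0.0434, adjusted p = 0.379 from limma). That omission also brought 12.7% of genes below 0.05 unadjusted, against 8.58% with every line kept. The difference was -0.29 without sg*Kmt2c* replicate 2 and -0.30 with median-of-ratios scaling (unadjusted p = 0.206 and 0.135 from limma). Leaving out any line but sg*Kmt2c* replicate 3 gave an unadjusted p between 0.0955 and 0.206 (limma). The gene lies on chromosome 18 from 73639009 to 73703780.

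*Smad3*, a receptor-activated SMAD that binds DNA directly, measured 25.3, 39.0 and 31.8 RPKM with sg*Trp53* and 21.3, 22.5 and 23.3 RPKM with sg*Kmt2c*. The sg*Kmt2c* lines were nearly level (SD 1.03 RPKM, n = 3, against 6.87 in the sg*Trp53* lines) and all below the lowest sg*Trp53* line (again p = 0.1 by exact permutation). The difference in log2 was -0.48 (95% confidence interval -0.99 to 0.04, unadjusted p = 0.0643, adjusted p = 0.597 from limma), and it lay between -0.63 and -0.33 with each line left out. The first of these, without sg*Trp53* replicate 1, had an unadjusted p-value of 0.0366 (adjusted p = 0.740 from limma). With any other line left out the unadjusted p lay between 0.0915 and 0.205 (limma). *Smad3* lies on chromosome 9 from 63646767 to 63757994.

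The 250 bases before the start of *Smad3* are shown as the printed stretch of a member whose lines did not overlap. They are RefSeq sequence of GRCm38.p6 on the minus strand, at chr9:63757995-63758244, with the same letters in capitals as above.
Smad3: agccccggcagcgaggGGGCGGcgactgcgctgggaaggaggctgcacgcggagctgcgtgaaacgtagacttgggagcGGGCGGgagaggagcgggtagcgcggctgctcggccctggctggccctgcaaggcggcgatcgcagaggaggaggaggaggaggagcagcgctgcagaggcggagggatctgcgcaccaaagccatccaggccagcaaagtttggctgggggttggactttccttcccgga
This window held 2 matches to GGGCGG, 234 and 171 bases before the start, and none to the other 3 motifs. Its GC content was 69.2%.

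*Smad2*, the other receptor-activated SMAD, measured 19.6, 18.9 and 27.4 RPKM with sg*Trp53* and 18.9, 11 and 18.4 RPKM with sg*Kmt2c*. The genotypes touched, since sg*Trp53* replicate 2 and sg*Kmt2c* replicate 1 were equal to 3 digits (288 and 254 reads). The log2 fold change was -0.44 (95% confidence interval -1.12 to 0.23, adjusted p = 0.689 from limma), -0.28 without sg*Trp53* replicate 3 and -0.21 without sg*Kmt2c* replicate 2. The gene lies on chromosome 18 from 76241580 to 76305731.

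In the deposited scaling, 3 of the 9 genes (*Smad2*, *Smad3* and *Smad4*) had every sg*Kmt2c* line below every sg*Trp53* line. Over all genes tested 16.2% had no overlap between the genotypes, with 10.4% lower and 5.72% higher in sg*Kmt2c*. With median-of-ratios scaling or quantile normalization the *Smad2* lines overlapped, and 2 genes were left. The split over all genes also moved, to 7.99% lower and 7.70% higher with median-of-ratios scaling, under which the median of all genes was -0.015 in place of -0.086. *Smad3* and *Smad4* were lower in every sg*Kmt2c* line under all 3 other scalings. None of the 3 had an unadjusted p-value under 0.05 in this comparison (limma), and *Smad4* had 0.0489 (adjusted p = 0.679) when no filter on low values was applied.

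**Figure D4:**
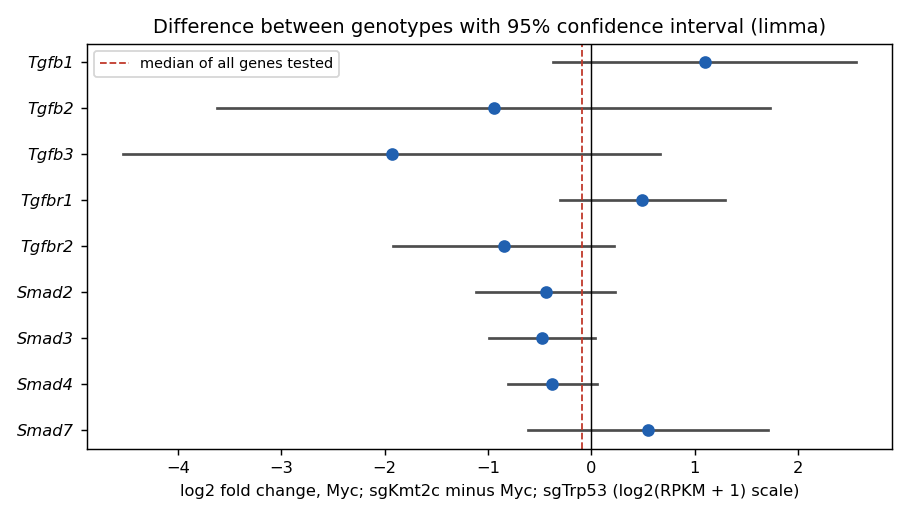
Log2 fold change of each TGF-beta gene (sgKmt2c minus sgTrp53 on the log2(RPKM + 1) scale, dot) with its 95% confidence interval from limma (line), and the median of all genes tested (dashed, -0.09). Each interval includes 0, and the intervals of *Smad3* and *Smad4* are the narrowest.

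*Smad7*, the inhibitory SMAD and itself a target of the pathway, measured 4.75, 19.0 and 15.6 RPKM with sg*Trp53* and 15, 21.5 and 15.6 RPKM with sg*Kmt2c*. Apart from the low sg*Trp53* replicate 1, the lines lay within a narrow range. The difference in log2 was 0.55 (95% confidence interval -0.61 to 1.71, adjusted p = 0.747 from limma), and without that line it was -0.01. *Tgfb1* was also lowest in sg*Trp53* replicate 1 and also highest in sg*Kmt2c* replicate 2. Across the 6 lines *Tgfb1* and *Smad7* had a Pearson r of 0.92 on the log2 scale, the highest of the 36 pairs of members, which is a description over 6 lines that share genotypes and depth. *Smad7* lies on chromosome 18 from 75367529 to 75395935.

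The members thus differed in how much they varied among lines of a single genotype. The SD within a genotype on the log2(RPKM + 1) scale was 1.74 for *Tgfb2* and 1.68 for *Tgfb3*, higher than in 97.4% and 97.1% of all genes tested. *Tgfb1* (0.932) and *Smad7* (0.712) stood at the 88.5 and 81.6 percentile. *Tgfbr2* stood at the 78.7 and *Tgfbr1* at the 58.6 percentile. *Smad2* (0.351), *Smad3* (0.219) and *Smad4* (0.139) stood at the 46.9, 18.9 and 4.55 percentile. Single lines carried some of this spread. Without sg*Kmt2c* replicate 1 the SD was 0.574 for *Tgfb2* and 0.310 for *Tgfbr2*, at the 82.4 and 53.6 percentile of all genes in that fit. Without sg*Trp53* replicate 1 it was 0.247 for *Smad7*, 0.630 for *Tgfb1* and 0.128 for *Smad3*. These stood at the 25.1, 75.1 and 4.83 percentile in that fit. *Tgfb3* lay between 1.27 and 1.92 with each line left out. Of the 54 values of these genes, 51 rest on 78 reads or more.

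For each member the gene with the most similar profile was taken, by Pearson correlation of log2(RPKM + 1) across the 6 lines. These were *Pcolce2* for *Tgfb2* (r = 0.9935), *Map3k12* for *Tgfb3* (r = 0.9954), *Lpp* for *Tgfbr2* (r = 0.9885), *Fam20b* for *Tgfbr1* (r = 0.9938) and *A530017D24Rik* for *Tgfb1* (r = 0.9821). For the SMADs they were *Smn1* for *Smad2* (r = 0.9982), *Fbn1* for *Smad3* (r = 0.9960), *Bcl9* for *Smad4* (r = 0.9965) and *Dse* for *Smad7* (r = 0.9916). With 6 lines and 11617 genes a gene's best match had a median r of 0.9933, so matches this close are common here. *Pcolce2*, which aids the processing of procollagen, lay at 0.574 RPKM in sg*Kmt2c* replicate 1 and at 8.24 to 20.2 RPKM in the other lines. *Fbn1*, the gene of the matrix protein fibrillin-1 that holds latent TGF-beta, ranked the 6 lines as *Smad3* did over a wider range, from 0 to 73.5 RPKM. It was picked for its similarity to *Smad3*, so the shared order is no separate result.

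The genes that store and release the ligand were given by a list of 14, of which 11 could be tested. None passed an adjusted p-value under 0.05 (limma). At an unadjusted p-value under 0.05, *Furin*, the protease that cuts the precursor, was higher in the sg*Kmt2c* lines, and no gene was lower, where 3.25% of all genes tested were higher and 5.34% lower. *Furin* measured 23.2, 23.5 and 26.2 RPKM with sg*Trp53* and 37.0, 33.4 and 49.6 RPKM with sg*Kmt2c*, without overlap. Its log2 fold change was 0.68 (standard error 0.211, unadjusted p = 0.0158, adjusted p = 0.474 from limma), and no gene of the list was past the unadjusted threshold without sg*Trp53* replicate 1. *Itgb6*, a subunit of an integrin that activates latent TGF-beta, had 12.9, 0.156 and 6.73 RPKM against 2.61, 0 and 0.876 RPKM (log2 fold change -1.40, adjusted p = 0.710 from limma). *Lrrc32*, which anchors latent TGF-beta at the cell surface, and the latent binding protein *Ltbp4* overlapped between the genotypes, at -1.20 and 0.98 on the log2 scale (adjusted p = 0.717 and 0.651 from limma).

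Of 8 co-receptors and related receptors, 4 could be tested and none passed the adjusted threshold (limma), while 1 was higher and 1 lower at an unadjusted p-value under 0.05 (3.25% and 5.34% over all genes tested). *Acvr1b*, the activin type I receptor that also signals through SMAD2 and SMAD3, measured 2.97, 4.0 and 3.06 RPKM with sg*Trp53*. With sg*Kmt2c* it measured 10.4, 7.13 and 7.47 RPKM, above every sg*Trp53* line (log2 fold change 1.10, standard error 0.257, unadjusted p = 0.00421, adjusted p = 0.355 from limma). *Tgfbr3*, the gene of the co-receptor betaglycan that presents TGF-beta2, stood at 4.44, 11.1 and 2.65 RPKM against 0.139, 1.47 and 1.65 RPKM. All sg*Kmt2c* lines lay below all sg*Trp53* lines (log2 fold change -1.67, standard error 0.552, unadjusted p = 0.0203, adjusted p = 0.494 from limma). The unadjusted p was 0.0586 with sg*Trp53* replicate 2 left out and 0.0516 with sg*Kmt2c* replicate 1 left out. *Acvr2a* and *Acvr2b*, the activin type II receptors, overlapped between the genotypes, with log2 fold changes of 0.25 and -0.14 (adjusted p = 0.768 and 0.896 from limma). Of 8 activin branch ligands and antagonists only *Gdf11*, *Inhba* and *Fst* could be tested. Their log2 fold changes were 0.47, 0.40 and 0.13 with adjusted p-values of 0.727 or more (limma), and none had an unadjusted p-value under 0.05.

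All 14 adaptors and regulators of SMADs could be tested, with 0 past the adjusted threshold (limma) and 1 lower at an unadjusted p-value under 0.05 (5.34% over all genes tested). That gene was *Tgif2*, a homeobox corepressor of SMAD complexes. It measured 15.3, 14.1 and 15.3 RPKM with sg*Trp53* and 9.66, 7.76 and 11.9 RPKM with sg*Kmt2c* (log2 fold change -0.58, unadjusted p = 0.0401, adjusted p = 0.569 from limma). Its unadjusted p was above 0.05 with median-of-ratios scaling (0.0597), with quantile normalization (0.0537) and with any line but sg*Kmt2c* replicate 3 left out (0.0574 to 0.119). *Nedd4l*, a ubiquitin ligase for SMAD2 and SMAD3, did not overlap either, at 8.84, 4.35 and 6.37 RPKM against 3.82, 3.09 and 4.21 RPKM (log2 fold change -0.64, adjusted p = 0.608 from limma). Of the 14 genes, 2 were lower without overlap, where 10.4% of all genes tested were. *Pmepa1*, an inhibitor of the pathway that TGF-beta induces, was lowest in sg*Trp53* replicate 1 at 2.57 RPKM, the line where *Tgfb1* and *Smad7* were also lowest. Its other values were 9.69 and 16.3 RPKM with sg*Trp53* and 23.0, 16.1 and 18.1 RPKM with sg*Kmt2c* (log2 fold change 1.19, adjusted p = 0.608 from limma). *Smurf1*, a ubiquitin ligase that acts with SMAD7 on the receptor, overlapped too (log2 fold change -0.40, adjusted p = 0.703 from limma).

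All 28 listed target genes of TGF-beta could be tested and none passed an adjusted p-value under 0.05 (limma). At an unadjusted p-value under 0.05, 3 were lower (*Cnn1*, *Loxl2* and *Tagln*) and 1 higher (*Junb*) in the sg*Kmt2c* lines, against 5.34% lower and 3.25% higher over all genes tested, and limma voom gave 2 and 1. Their median log2 fold change was -0.74, against -0.09 for all genes tested. The median became -0.34 when sg*Kmt2c* replicate 1 was left out, and -1.18 when replicate 2 was. *Cnn1*, the gene of the smooth muscle protein calponin, had the lowest adjusted p-value of the list. It measured 9.90, 30.3 and 38.4 RPKM with sg*Trp53* and 0, 0.229 and 0.790 RPKM with sg*Kmt2c*, from 0, 2 and 8 reads (log2 fold change -4.19, standard error 0.529, adjusted p = 0.0611 from limma). *Tagln*, another gene of contractile cells, stood at 9.20, 8.30 and 77.6 RPKM against 0.401, 2.91 and 5.75 RPKM (log2 fold change -2.55, adjusted p = 0.554 from limma). For *Tagln* the unadjusted p of 0.0336 rose to 0.0764 with limma voom and to between 0.0612 and 0.0918 with sg*Trp53* replicate 3 or sg*Kmt2c* replicate 1 or 2 left out. *Loxl2*, which crosslinks collagen, had 75, 129 and 439 reads against 13, 2 and 1 reads (log2 fold change -2.37, adjusted p = 0.322 from limma).

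*Junb*, an early-response transcription factor, lay the other way, at 50.2, 92.1 and 79.1 RPKM against 149, 133 and 107 RPKM without overlap (log2 fold change 0.84, unadjusted p = 0.0194, adjusted p = 0.491 from limma). Leaving out sg*Trp53* replicate 1 or sg*Kmt2c* replicate 2 left 0 target genes higher at an unadjusted p-value under 0.05, with 5 and 4 lower. The target list shares *Col1a1* and *Col1a2* with the fibroblast markers, whose sum ranged from 15.3 to 986 RPKM with sg*Trp53* and from 0.282 to 150 RPKM with sg*Kmt2c*. The part of that difference in the target genes was not tested. Over the 5 pathway lists together, 60 of 72 genes could be tested. The count past an adjusted p-value under 0.05 was 0, and 3 were higher and 5 lower at an unadjusted p-value under 0.05 (limma), where all genes tested gave 3.25% and 5.34%. Without overlap between the genotypes, 3 of the 60 were higher and 6 lower in sg*Kmt2c*, where all genes tested gave 5.72% and 10.4%.

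**Figure D5:**
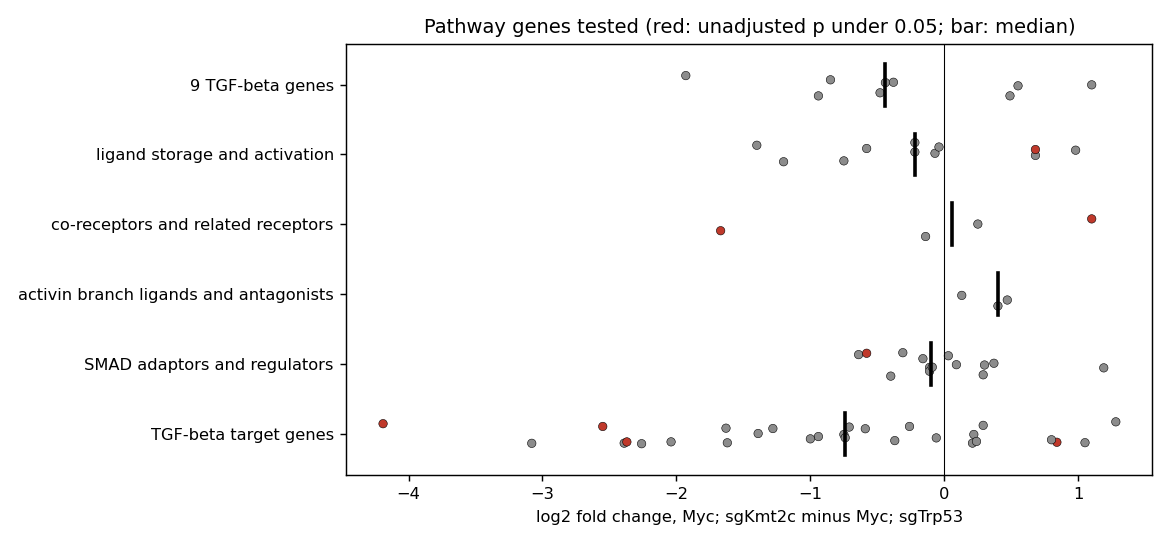
Log2 fold change (sgKmt2c minus sgTrp53) of the 9 TGF-beta genes and of every tested gene of the 5 pathway lists, red where the unadjusted p-value is under 0.05, with a bar at the median of each row. No red point lies among the 9 genes, and the target genes reach furthest to the left (*Cnn1*, -4.19).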

How the data were processed

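RNA from 6 cell lines, 3 per genotype, was sequenced by the authors. Per the labels and the paper's methods, they removed adaptors with Trimmomatic, aligned reads to GRCm38 with STAR and counted per gene with HTSeq. The authors deposited RPKM values (named FPKM in the methods), with a transcript length per gene. Of 21065 rows 209 hold no values, and 6 further sample columns belong to no sample of this series and were not used. The authors' DESeq2 (1.8.2) table holds fold changes and p-values of their own comparison and was not used. Groups came from the sample titles.

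RPKM times transcript length came in whole steps per library (within 1.34e-05 of a read), which gave the reads. Lines of a genotype differed by more than counting error (chi-square 26.5 or higher per gene). The test was limma 3.58.1 (R 4.3.3), with eBayes trend fitted to log2(RPKM + 1), for genes with at least 1 RPKM in at least 3 of 6 libraries, with genotype as the only term. It was checked on simulated reads with a single spread between lines (dispersion) set for all genes. The spread of the real lines differed between genes, so that check does not cover genes as uneven as *Tgfb2*. The pseudocount of 1 understates the change of low genes. The members, lists and tests were chosen with earlier results of these data known. Named genes are the members, *Trp53*, *Kmt2c* and *Cdkn2a*, the highest gene of a marker list, the nearest profile of each member and, per pathway list, those past the adjusted threshold or else the 4 with the lowest p-value. Further genes, such as *Alb*, *Hnf4a*, *Csf1r* and *Ptprc*, were named outside this rule, and the highest gene is not named for every marker list. P-values weigh the difference between genotypes against the spread between lines, which the study's methods describe as from different mice. The labels 2A and 2T1 of sg*Kmt2c* replicates 2 and 3 share a number, and whether these lines share a mouse was not settled, so both were also entered as a single sample. Other scalings, pseudocounts, filters and tests and each line left out are given in the closing section. Promoters came from RefSeq (GRCm38.p6), with windows for 5 of the 9 members.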

Additional observations from a re-analysis of the deposited data

How the results depend on the processing

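Of 153 member fold changes recomputed under the alternatives, 151 kept their direction, and none reached an adjusted p-value under 0.05 (0.218 to 0.996, limma). The exceptions both left out a line. *Tgfb2* was 0.42 without sg*Kmt2c* replicate 1 (range with each line left out -1.95 to 0.42), and *Smad7* was -0.01 without sg*Trp53* replicate 1 (-0.01 to 0.89). Limma voom on recovered reads gave -2.47 for *Tgfb2* and -3.89 for *Tgfb3*. The number of members with an unadjusted p-value under 0.05 was 1 without a filter on low values (*Smad4*, 7.32% of all genes), 2 with a replicate block (*Tgfb1* and *Tgfb3*, 9.34% of all genes) and 0 to 1 with each line left out (4.85% to 12.7% of all genes). Members whose lines did not overlap numbered 3 to 5 with each line left out (5 without sg*Kmt2c* replicate 1 or 2), where 22.3% to 32.4% of all genes tested did not overlap, an alternative chosen after seeing the data, as was the spread with each line left out.

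Over all genes tested, 15 passed an adjusted p-value under 0.05. This was 6 with a pseudocount of 0.1, 5 without a filter, 4 with limma voom, and 0 with sg*Kmt2c* replicates 2 and 3 (labelled 2A and 2T1, a shared number that may mark a shared origin) as a single sample or with a replicate block. It was 0 to 8 with each line left out (8 without sg*Kmt2c* replicate 1 and 0 without any other), and the count at an unadjusted p-value under 0.05 (997 with all lines) was then 563 to 1477. The cause was not tested. For pathway genes the unadjusted count was 8, and 17 with a replicate block, under which the count over all genes was 1085. Same-numbered lines share only a number. Their deviations from the genotype means had correlations of 0.19, 0.40 and 0.03 between genotypes, and sg*Trp53* replicate 3 correlated best with sg*Kmt2c* replicate 1 (0.15), so the block is not read as a pairing. With 3 lines per genotype precision was limited by the spread between lines, and the interval of *Tgfb2* reached from 0.0814-fold to 3.32-fold.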
